A study of Mus musculus with 6 samples.

Results

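Insulin and insulin-like growth factor (IGF) signalling in the developing rib cage was described through 10 genes: the ligand Igf1, the receptors Igf1r and Insr, the adaptors Irs1, Irs2 and Irs4, and the binding proteins Igfbp2, Igfbp3, Igfbp4 and Igfbp5. They were matched by symbol to 10 of the 55487 gene IDs of the deposited count table, and all 10 passed the filter of at least 10 counts summed over the libraries. The members were chosen by their values in these libraries, among them the mutant against control difference of Irs4, so that difference is given for each member as a description. No p-value is given for a member, and where a member is counted among the genes called, the count supports nothing. RNA from the rib cages of 6 mouse embryos at 16.5 dpc (days post coitum) had been sequenced. The 3 control embryos (E420, E434 and E435) are labelled wild type, and the study's methods describe littermate comparisons, with embryos born to mothers with both genes floxed on a mixed C57B6 and Black Swiss background. The 3 mutant embryos (E423, E433 and E440) are labelled Col2-cre;Foxc1-/-;Foxc2-/-. In these, the forkhead transcription factors Foxc1 and Foxc2 were removed by Cre recombinase under Col2 control, a driver of the chondrocyte lineage. The fathers carried Col2-cre with 1 deleted copy of each gene. For its skeleton stains the study describes controls as lacking the Col2-cre transgene. Whether a copy was also deleted outside the Col2-cre lineage is not stated. Nothing in the labels says which embryos shared a litter. Where values of single embryos are listed, controls stand in the order E420, E434, E435 and mutants in the order E423, E433, E440.

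In this pathway, IGF1 and insulin bind receptor tyrosine kinases on the cell surface, and the activated receptor phosphorylates insulin receptor substrate (IRS) adaptors, which recruit PI3-kinase and switch on Akt and mTOR. IGF binding proteins hold IGFs outside the cell, and proteases such as pappalysin release them. IGF signalling is a main driver of growth in the embryonic skeleton, where it acts on growth plate chondrocytes and on osteoblasts. Irs1 and Irs2 are used widely, whereas Irs4, a gene on the X chromosome with a narrow pattern of expression, is known mostly from the hypothalamus and from some cell lines and tumours.

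Library totals ran from 37853988 to 47794799 counts, so that 1 count equals between 0.0206 and 0.0255 CPM (counts scaled to library size by edgeR's TMM method). Foxc1 had 23.1 to 36.9 CPM in controls and 3.51 to 9.61 CPM in mutants, and Foxc2 had 1.99 to 4.83 CPM and 0.649 to 1.14 CPM. Within each group 1 library stood apart from the other 2. The SD over genes of the log2 difference was 0.53 both between controls E420 and E435 and between mutants E423 and E440, but 1.03 to 1.05 between these controls and E434 and 0.96 to 0.97 between these mutants and E433. Control E434 and mutant E433 held more cartilage RNA, with 27956 and 10381 CPM summed over 14 early chondrocyte markers against 720 to 2147 CPM in the other 4 libraries. They also held less keratinocyte RNA than the rest of their groups. Over 10 keratinocyte markers E434 had 18.2 CPM against 5152 and 5981 CPM in the other controls. E433 had 3110 CPM against 27293 and 27412 CPM in the other mutants. Values without these 2 libraries are therefore given beside those of all 6. In whole tissue, fewer cells of a type and less RNA per cell cannot be told apart.

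The stretch just upstream of the Irs4 start is shown because Irs4 is the member with the largest difference between the groups. It covers 204 bases on the minus strand at chrX:141725264-141725467 (RefSeq sequence, GRCm38.p6) and ends at the base before the annotated start. Capitals mark an E-box (CACGTG) and the core TGTTTTG, the reverse complement of CAAAACA, which is known from insulin response elements.

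Irs4 upstream: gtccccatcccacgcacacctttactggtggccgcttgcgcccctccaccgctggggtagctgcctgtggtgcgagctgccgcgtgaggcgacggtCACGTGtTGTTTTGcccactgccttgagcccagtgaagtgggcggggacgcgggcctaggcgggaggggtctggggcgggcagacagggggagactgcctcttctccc

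These 204 bases are 69.1% G or C and hold 15 CpG dinucleotides. Promoter windows of 300 bases were matched for 9 of the 10 members (10 windows). The Irs4 window is 67% G or C, against a mean of 53.8% over all promoters. Windows of the other members run from 52.3% (Igf1) to 76% (Igf1r). The forkhead core GTAAACA, searched on both strands because Foxc1 and Foxc2 are forkhead factors, was in 0 of the 10 windows and in 3.65% of all 32851 windows. CAAAACA and CACGTG were searched only after the Irs4 stretch had been read. The first was in the windows of Irs1, Irs2 and Irs4 alone among the members (6.28% of all windows), and the second in those of Irs1, Irs2, Irs4 and Igfbp2 (7.15% of all windows). The 29 bases around the first are shown for the 3 adaptor genes, all on the minus strand, with the core in capitals; Irs1 holds it a second time nearer its start.

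Irs4, chrX:141725347-141725375: cggtcacgtgtTGTTTTGcccactgcctt

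Irs2, chr8:11008949-11008977: gagtcacgtgtTGTTTTGctcttagttca

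Irs1, chr1:82291533-82291561: gctccgtcacgTGTTTTGctcctctggag

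In all 3 stretches an E-box lies at the core, 1 base away in Irs4 and Irs2 and overlapping it in Irs1. A match in letters does not show that a factor binds there, and the lack of GTAAACA does not show that no forkhead factor binds.

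Irs4 (ENSMUSG00000054667.7, chromosome X from 141710998 to 141725263 in GRCm38, minus strand) measured 0.789, 0.265 and 0.453 CPM in controls against 13.0, 6.89 and 12.6 CPM in mutants. These levels rest on 31, 12 and 22 counts in the controls and 540, 297 and 581 counts in the mutants. Every mutant library lay far above every control, and the lowest mutant, E433, was still 8.73 times the highest control. The log2 fold change was 4.43 (SE 0.46), or 21.6-fold. It was 4.40 (SE 0.18) without E434 and E433, and 4.70 between these 2 libraries, a pair with no replicate and 12 counts in E434. The part of cartilage content in the Irs4 difference was not tested. Irs4 was the 1 member among 10 past both limits used here, an adjusted p under 0.1 in edgeR's quasi-likelihood test and a level changed at least by 1 on the log2 scale, where 0.0639% of all 26596 genes tested were past them; since it was chosen for this difference, nothing is read from that count. The call was lost when any library other than E433 was left out, while the log2 fold change stayed between 4.13 and 4.90. Mutant E433 is the 1 library with Xist (1127 CPM, against at most 3.11 CPM elsewhere) and almost no Ddx3y, which marks a female embryo. The other 2 mutants had the higher Irs4 levels. Strand was not used in counting, but Gm15295, a gene that overlaps the start of Irs4, had 0 counts in every library.

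**Figure D1:**
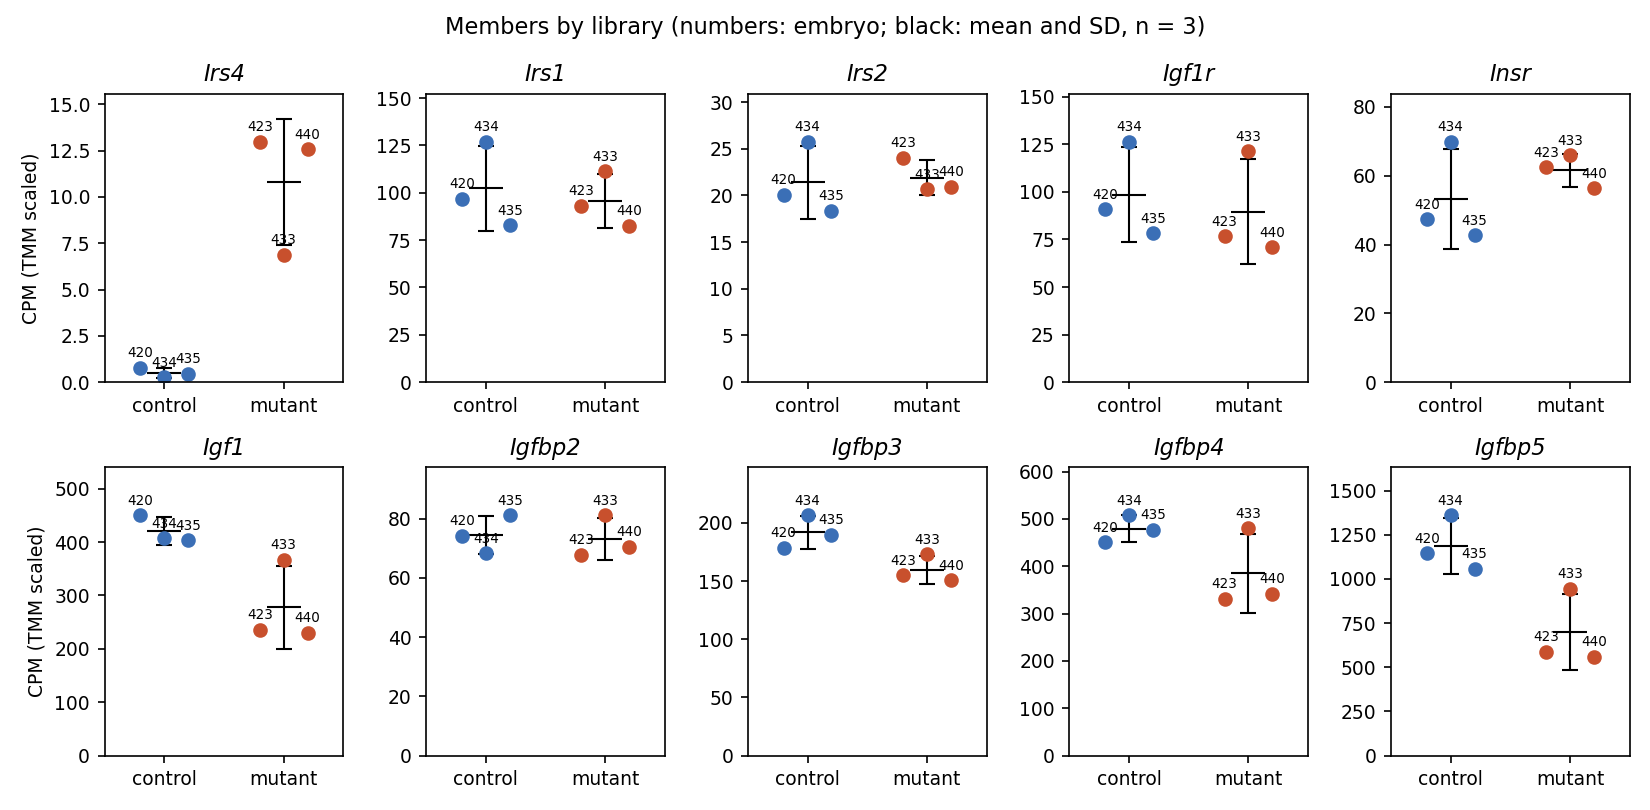
Level of each of the 10 members in the 6 libraries, in CPM on linear axes from 0, with controls in blue, mutants in red, embryo numbers beside the points and the mean and SD (n = 3) in black. Irs4 lay between 0.265 and 0.789 CPM in controls and between 6.89 and 13.0 CPM in mutants, whereas the receptors and the other adaptors overlapped between the groups.

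Irs1 and Irs2, the other adaptors among the members, did not share this pattern. Irs1 (chromosome 1 from 82233101 to 82291416), the most abundant of Irs1, Irs2 and Irs4, measured 96.8, 127 and 83.0 CPM in controls against 93.1, 111 and 82.7 CPM in mutants (log2 fold change -0.10, SE 0.18, and -0.03, SE 0.06, without E434 and E433). Irs2 (chromosome 8 from 10984681 to 11008458), which also acts downstream of both receptors, measured 20.1, 25.8 and 18.4 CPM in controls against 24.1, 20.7 and 20.9 CPM in mutants (log2 fold change 0.03, SE 0.15, and 0.23, SE 0.08, without E434 and E433). For both, the groups overlapped and the difference over all 6 libraries was smaller than the spread between embryos. The gene 9530052E02Rik overlaps Irs2, so reads of the 2 may be shared. Irs3, an IRS adaptor outside the members, measured 0.229, 0.132 and 0.247 CPM in controls against 0.722, 0.0464 and 0.802 CPM in mutants. Its log2 fold change was 1.36 (SE 0.86), and the groups overlapped.

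Levels were compared between genes in TPM (transcript abundance scaled to gene length and library size), as deposited. Summed over the 3 member adaptors Irs1, Irs2 and Irs4, the level was 27.4 ± 6.17 TPM (SD, n = 3) in controls and 27.8 ± 4.31 TPM (SD, n = 3) in mutants. Irs4 made up 0.687%, 0.176% and 0.410% of that sum in controls against 10.1%, 5.19% and 10.9% in mutants. Irs1 supplied most of the sum in every library, with 82.0% ± 0.83 (SD, n = 3) in controls and 73.9% ± 4.88 (SD, n = 3) in mutants. Of these 3 adaptors Irs4 was the least abundant in all 6 libraries, at 1.68 to 2.73 TPM in mutants against 4.36 to 5.01 TPM for Irs2.

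**Figure D2:**
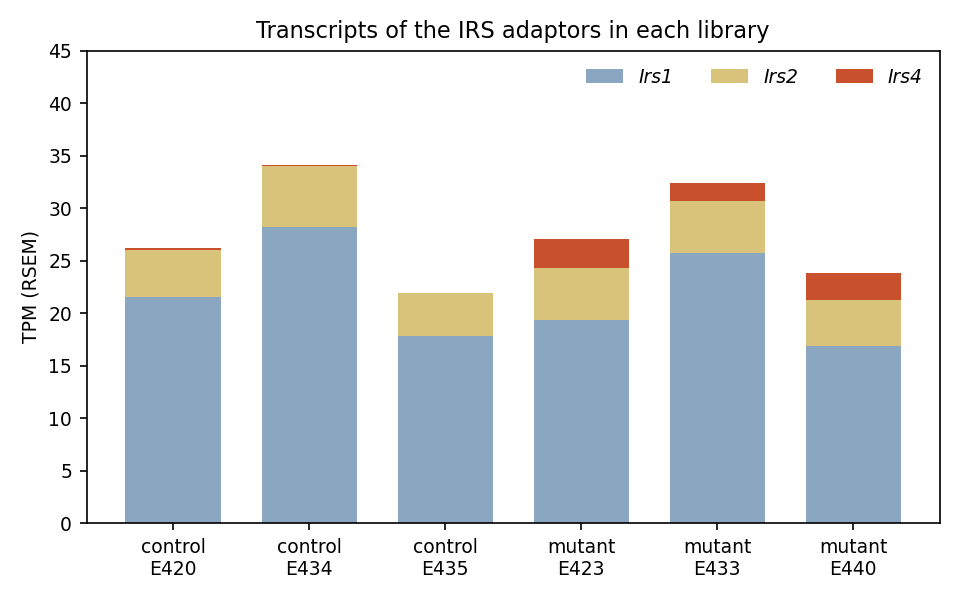
Stacked bars of the TPM of Irs1, Irs2 and Irs4 in each library, from 0. The sum was of like size in both groups, and Irs4 (red) took 5.19% to 10.9% of it in mutants and under 1% in controls.

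The ligand Igf1 (ENSMUSG00000020053.18, chromosome 10 from 87858265 to 87937042, plus strand) was lower in mutants. It measured 450.4, 407.2 and 403.1 CPM in controls against 235.5, 366.9 and 230.1 CPM in mutants. The groups did not overlap, but E433 came close to the lowest control, and the other mutants lay well below. The log2 fold change was -0.60 (SE 0.19), which was -0.87 (SE 0.05) without E434 and E433 and -0.15 between these 2 libraries. Mutant E433 also stood apart in liver transcripts, with 786 CPM summed over 10 hepatocyte markers against 58.7 to 90.0 CPM in all other libraries, and liver is a known source of IGF1. Markers of macrophages (8 genes), another known source, summed to 303 to 316 CPM in controls and 242 to 288 CPM in mutants. The part of these cells in the Igf1 difference was not tested. Igf1os overlaps Igf1, so that antisense reads could be included, and the log2 fold change on the RSEM expected counts was -0.59.

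The receptors overlapped between the groups. Igf1r (chromosome 7 from 67952827 to 68233668), the receptor for IGF1, measured 91.0, 126 and 78.2 CPM in controls against 76.6, 121 and 70.9 CPM in mutants (log2 fold change -0.14, SE 0.26). Insr (chromosome 8 from 3122061 to 3279617), the insulin receptor, measured 47.4, 69.9 and 42.8 CPM in controls against 62.6, 65.9 and 56.4 CPM in mutants (log2 fold change 0.21, SE 0.19). In each group the cartilage-rich library had the highest level of both receptors. Control E434 exceeded the mean of its 2 group mates by 0.58 for Igf1r and 0.63 for Insr on the log2 scale, and mutant E433 by 0.72 and 0.15. Without these 2 libraries the log2 fold change was -0.19 (SE 0.06) for Igf1r and 0.40 (SE 0.06) for Insr. The summed receptor level was 21.9 ± 6.23 TPM (SD, n = 3) in controls and 21.9 ± 6.58 TPM (SD, n = 3) in mutants.

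Among the binding proteins, the 3 mutants lay below the 3 controls for Igfbp5 and Igfbp3. Igfbp5 (chromosome 1 from 72857932 to 72874884), the binding protein that sits in bone matrix, measured 1144, 1361 and 1057 CPM in controls against 587.5, 945.5 and 560.5 CPM in mutants (log2 fold change -0.77, SE 0.23). Igfbp3 (chromosome 11 from 7206086 to 7213923), the main carrier of IGFs in adult serum, measured 178.6, 206.6 and 189.9 CPM in controls against 154.9, 173.2 and 150.6 CPM in mutants (log2 fold change -0.26, SE 0.09). The Igfbp3 difference was small but alike in both comparisons, at -0.27 without E434 and E433 and -0.25 between these 2. For Igfbp5 the values were -0.94 and -0.53. Of the 14 osteoblast and osteocyte markers, 13 moved in the same direction as Igfbp5, and Mepe was higher (log2 fold change 0.94). The 14 summed to 19501 to 28132 CPM in controls and 13737 to 14752 CPM in mutants, mostly from Col1a1 and Col1a2. In every mutant library 12 of the 14 were lower than in any control, where 8.21% of all genes tested were. The part of osteoblasts and osteocytes in the Igfbp5 difference was not tested.

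Igfbp4 (chromosome 11 from 99041244 to 99054392), which is cleaved by pappalysin to free IGF, measured 451.4, 508.2 and 477.3 CPM in controls against 331.3, 480.8 and 342.4 CPM in mutants (log2 fold change -0.32, SE 0.16, and -0.46, SE 0.04, without E434 and E433). Here mutant E433 reached the control range, and the other mutants lay below it. Igfbp2 (chromosome 1 from 72824503 to 72852474), a binding protein abundant in fetal tissue, measured 74.3, 68.3 and 81.2 CPM in controls against 67.7, 81.1 and 70.6 CPM in mutants (log2 fold change -0.03, SE 0.10, and -0.17, SE 0.06, without E434 and E433). Although Igfbp2 and Igfbp5 lie 5.458 kb apart on chromosome 1, only Igfbp5 had groups that did not overlap. Over the 4 binding proteins, the sum was 787.7 ± 60.6 TPM (SD, n = 3) in controls and 488, 772 and 472 TPM in the 3 mutants. The share of Igfbp5 in that sum was 34.7% ± 2.36 (SD, n = 3) in controls and 27.2% ± 2.49 (SD, n = 3) in mutants, and that of Igfbp2 was 11.5% ± 1.48 and 15.5% ± 1.52 (SD, n = 3).

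**Figure D3:**
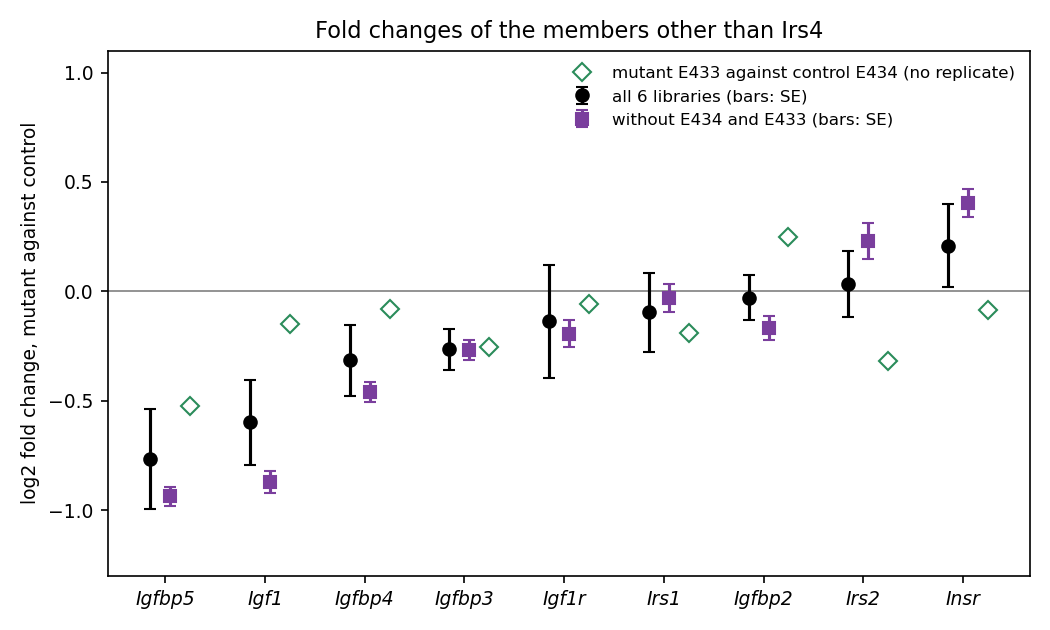
Log2 fold change (mutant against control) of the 9 members other than Irs4, from all 6 libraries (black, with SE), without E434 and E433 (purple, with SE) and between mutant E433 and control E434 (green, no replicate). Igfbp3 was near -0.26 in all 3, whereas Igf1 ran from -0.87 to -0.15 and Insr, Irs2 and Igfbp2 changed sign.

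Of the 10 members, 3 were lower in every mutant than in every control (Igf1, Igfbp3 and Igfbp5), where 8.21% of all genes tested were, and 1 was higher (Irs4), where 6.81% of all genes were. The other 6 overlapped. The median log2 fold change was -0.12 over the members and 0.01 over all genes tested. These members were selected on values of this contrast, and the counts are a description.

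By level in the controls, the binding proteins and the ligand came first, led by Igfbp4 (309 ± 17.9 TPM, SD, n = 3) and Igfbp5 (274 ± 39.9) and followed by Igfbp3 (115 ± 10.3), Igf1 (99.2 ± 5.52) and Igfbp2 (89.7 ± 5.68). The signalling genes inside and on the cell were lower, in the order Irs1 (22.5 ± 5.28 TPM, SD, n = 3), Igf1r (13.9 ± 3.67), Insr (7.97 ± 2.65), Irs2 (4.81 ± 0.922) and Irs4 (0.11 ± 0.0625). Igfbp4 and Igfbp5 overlapped, as did Igf1r and Insr, and the other neighbours in this order did not. In mutants Igfbp2 (87.8 ± 16.4 TPM, SD, n = 3) stood above Igf1 (65.6 ± 25.5), with overlapping libraries, and the order was otherwise kept. When CPM was divided by exon length instead, Igfbp5 came before Igfbp4.

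The rest of the pathway was read from a list of 88 genes, of which 87 were tested and the growth hormone gene Gh was not. After adjustment over all genes, 0 of the 87 were called with edgeR's quasi-likelihood test, where 0.0639% of all genes tested were. At an unadjusted p under 0.05 there were 7 higher and 5 lower, 13.8% of the list, where 10.6% of all genes tested were. DESeq2's Wald test called Prlr higher and Pappa lower, and it called 1.79% of all genes tested. Over the 87 genes the log2 fold change had a median of -0.00.

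Among ligands and the growth hormone axis, the fetal growth factor Igf2 was the most abundant gene of the list and far exceeded Igf1, with 3438 TPM on average in controls and 3062 TPM in mutants, a log2 fold change of -0.20 (SE 0.19). Prlr, the prolactin receptor, measured 0.662, 0.529 and 0.495 CPM in controls against 3.25, 1.46 and 2.95 CPM in mutants. Its groups did not overlap, with a log2 fold change of 2.18 (SE 0.35, adjusted p = 0.16 in edgeR's quasi-likelihood test). Ghr, the growth hormone receptor, which drives Igf1 in many tissues, had 79.0 to 85.6 CPM in controls and 68.6 to 83.4 CPM in mutants.

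Pappa, the protease that cleaves Igfbp4, measured 8.70, 14.8 and 8.06 CPM in controls against 3.05, 7.29 and 3.86 CPM in mutants. It was lower in all 3 mutants, with a log2 fold change of -1.15 (SE 0.39) that did not pass the test (adjusted p = 0.419, edgeR). In the negative feedback group, Socs1, an inhibitor of cytokine and insulin signalling, had a log2 fold change of -0.58 (SE 0.15, adjusted p = 0.363, edgeR), again with groups apart. Socs3, a related inhibitor, had -0.27, whereas Cish, of the same SOCS family, had 0.89 and Trib3, an Akt-binding stress gene, had 1.61. For Cish and Trib3, mutant E433 lay within the control range and the other 2 mutants above it. The remaining genes at an unadjusted p under 0.05 were the adaptors Dok5 (-0.40) and Sh2b2 (0.40), the Akt and mTOR targets Foxo6 (0.67), Rps6kb2 (0.66) and Slc2a4 (0.59), the last the insulin-regulated glucose transporter of muscle and fat, and the Igf2 mRNA binding protein Igf2bp3 (-0.18).

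Further down the cascade, of the 14 genes of PI3K and Akt, 0 had an unadjusted p under 0.05 in edgeR's test, with log2 fold changes from -0.37 to 0.39, and the same held for the 11 genes of the Ras and MAPK branch, from -0.18 to 0.45. Akt1, the most abundant gene of the first group, had a log2 fold change of -0.09 and Hras, that of the second, 0.45. In the other groups the most abundant were Igf2r (-0.18), Igfbp7 (0.08), Grb10 (-0.23), Eif4ebp1 (0.16), Ptpn11 (0.08) and Igf2bp2 (-0.10).

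**Figure D4:**
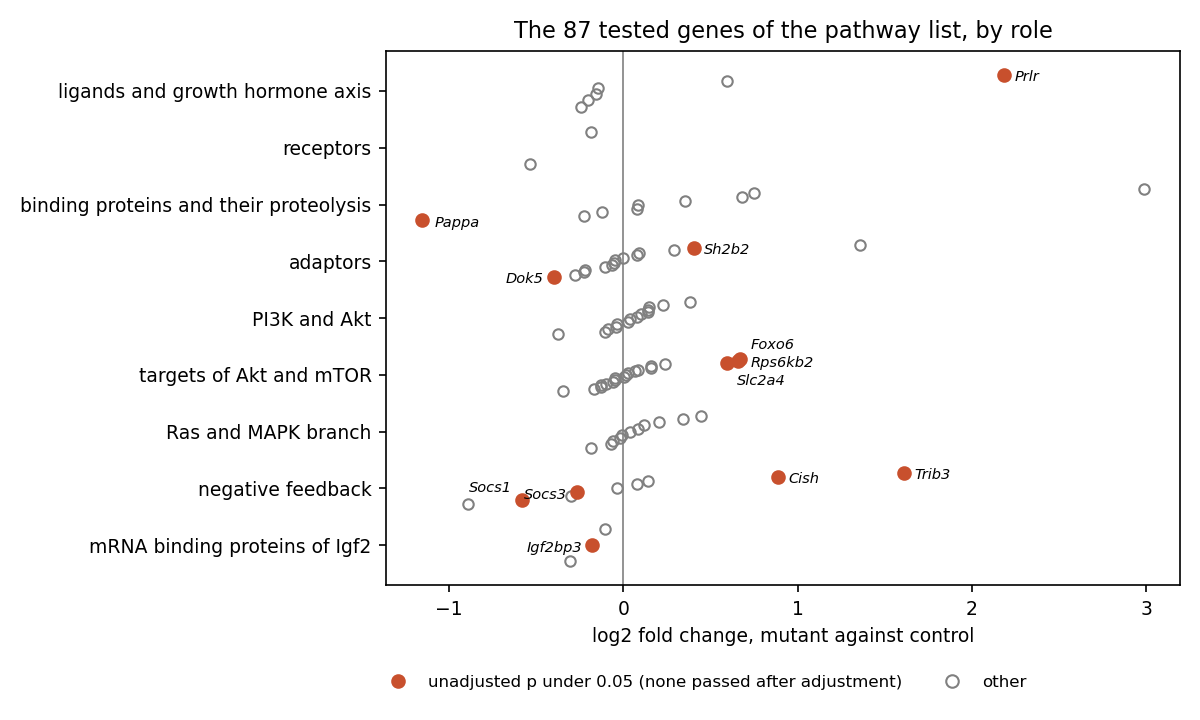
Log2 fold change (mutant against control) of the 87 tested genes of the pathway list, 1 row per role, with the 12 genes at an unadjusted p under 0.05 (edgeR) filled in red and named. Prlr stood at 2.18 and Pappa at -1.15, and 0 of the 87 passed after adjustment over all genes.

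The genes whose pattern was most like that of Irs4 were found as those with the smallest root mean square difference of centred log2 CPM over the 6 libraries, among 16568 genes with a mean of at least 1 CPM. They were Acvr1c (0.57), Cidec (0.75), Klb (0.77), Klhdc7a (0.77) and Mrap (0.81), against a spread of 2.24 for Irs4 itself. Cidec encodes a lipid droplet protein of fat cells. The 14 white and brown adipocyte markers were all higher in mutants on average, summing to 202 to 230 CPM in controls and to 862, 292 and 877 CPM in the 3 mutants. Among them, Lep and Retn had 0 counts in all controls. For 9 of the 14, every mutant was higher than every control, where 6.81% of all genes tested were. Cebpa, Ucp1, Cidea, Ppargc1a and Dio2 overlapped, and in mutant E433 each was below the highest control.

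Irs4 differed from these genes in mutant E433. There its level was lower than the mean of the other 2 mutants by 0.89 on the log2 scale, while that of the 5 nearest genes was lower by 1.95 to 3.09. For the adipocyte markers this difference had a median of -1.97 over the 13 with counts in E433, ranging from -3.23 to -0.03, and in 11 of the 13 it was larger in size than for Irs4. Adipoq, which encodes a hormone of fat cells, had 50.3, 7.19 and 53.2 CPM in the 3 mutants. Keratinocyte markers (10 genes) were also uneven among mutants, with 27293, 3110 and 27412 CPM against 18.2 to 5981 CPM in controls. The part of adipocytes and keratinocytes in the Irs4 difference was not tested.

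**Figure D5:**
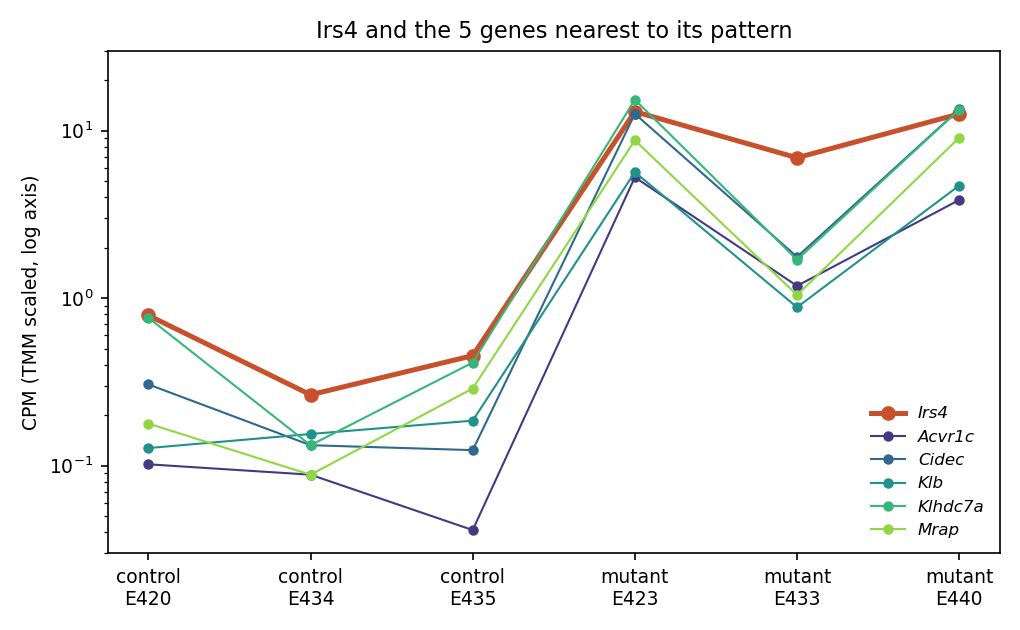
Levels of Irs4 (thick red) and the 5 genes nearest to its pattern in each library, in CPM on a log axis. All 6 genes were low in controls and high in mutants E423 and E440, which follows from picking the 5 over these same libraries. In mutant E433 Irs4 was at 6.89 CPM while the others were between 0.882 and 1.76 CPM.

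The nearest patterns to Igf1 were those of Gm10182 (0.051), B3gnt5 (0.059), Tlr1 (0.065), Scara5 (0.068) and Wfikkn2 (0.071), against a spread of 0.39 for Igf1 itself. Wfikkn2 encodes a secreted inhibitor of myostatin and Tlr1 a receptor of innate immune cells. Picked for likeness over these same 6 libraries, all 5 shared with Igf1 a level in E433 above that of the other 2 mutants. Scara5, for example, had 48.9 to 53.6 CPM in controls and 28.3, 44.4 and 31.4 CPM in the 3 mutants.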

How the data were processed

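The authors prepared stranded mRNA libraries, aligned paired reads to GRCm38 with HISAT2 2.1.0 and deposited counts per gene from featureCounts 1.6.0. Per the file headers, primary alignments on GENCODE exons were counted, each read end on its own and strand not used, so genes with overlaps or near-identical copies are uncertain. The authors also deposited expected counts and TPM per gene from STAR 2.7.6 and RSEM 1.2.31. Their comparison tables (DESeq2 1.26.0 fold changes and adjusted p-values) and 12 columns of per-sample values in them were not used.

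From the counts, 26596 genes with 10 or more counts in all entered edgeR 4.0.16 (R 4.3.3): TMM scaling, glmQLFit and glmQLFTest with no pairing, and Benjamini-Hochberg adjustment. A gene was called at an adjusted p under 0.1 with a log2 fold change of 1 or more in size. Totals ran from 37853988 to 47794799 counts, and precision at low counts is limited by these totals. With 3 embryos per group a 2-sided permutation cannot give a p under 0.1. The labels number the embryos, so replicates are separate animals.

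The members, gene lists and tests were chosen with earlier results of these data known. Genes were named by rule: the members, pathway genes at an unadjusted p under 0.05 or most abundant in their role, the 5 nearest patterns to Irs4 and Igf1, and marker genes. Ghr, Lep, Retn, Adipoq, Ins1, Ins2 and the islet and acinar genes were named after their values were seen. Gene names come from an older GENCODE release, and promoter sequences from RefSeq (GRCm38.p6). The early chondrocyte covariate is the mean log2 CPM of that list. Alternatives were DESeq2 1.42.0 (size factors, Wald test), other filters, rounded RSEM expected counts, other limits, this covariate and leaving out libraries. Leaving out E434 and E433 together was added after the values were seen. The steps were tested on simulated data.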

Additional observations from a re-analysis of the deposited data

How the results depend on the processing

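Of the 120 alternative values set for the members' log2 fold changes, all 120 moved by less than 1 SD of the embryos, and the sign turned only for Igf1r, Irs1, Irs2 and Igfbp2, all near 0. Without E434 and E433 together, the setting added later, 9 of the 10 also moved by less than 1 SD, and Igfbp2 moved by more (-0.17). Counts of called genes did depend on the setting. Over all genes, edgeR called 17, and 477 were called with DESeq2's Wald test, 37 with no filter, 10 on RSEM expected counts, 248 with the early chondrocyte covariate and 0 at an adjusted p under 0.05 (2820 at an unadjusted p under 0.05). Leaving out libraries gave from 0 to 2066 (1087 without E433, 2066 without E434 and E433, 17 without E434). It gave 0 without E420, E435, E423 or E440, when 1450 to 1698 had an unadjusted p under 0.05. Of the members, 0 to 2 were then called, Igfbp5 (-1.04) joining Irs4 without E433. Pathway genes called were 0, but 2 with DESeq2's Wald test, 1 with the covariate (Prlr), 5 without E433 (Prlr, Pappa, Irs3, Cish and Trib3) and 7 without both E434 and E433 (these 5 with Ins1 and Ins2), a range of 0 to 7. Genes within 500 kb of the members called were 0, but 2 with DESeq2's Wald test, 3 with the covariate, and 0 to 17 when libraries were left out (11 without E433, 17 without both). Of all genes tested, 0.0639% were called in the main setting, 1.79% with DESeq2's Wald test and 0.932% with the covariate. The share was 4.21% without E433 and 8.25% without both E434 and E433. No result about the members, the pathway list or the neighbours is read from these counts. Why the counts depended on the setting was not tested. The close pairs left in the last setting make its spread small. Low counts limit Irs4 in controls, with 12 counts in E434.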

Other observations

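Transcripts of insulin itself were detected in all 6 libraries and were high in 3 of them. Ins2, an insulin gene of the mouse, measured 80.9 CPM in control E420, 40.8 CPM in control E435 and 107.9 CPM in mutant E433 (3178, 1978 and 4651 counts). In control E434 and mutants E423 and E440 it measured 1.08, 1.40 and 0.780 CPM (49, 58 and 36 counts). Ins1, the other insulin gene, measured 17.4, 8.14 and 21.2 CPM in the first 3 libraries and 0.132, 0.385 and 0.173 CPM in the others. The same libraries, E420, E435 and E433, were high for both, and the groups overlapped (log2 fold change -0.16, SE 1.92, adjusted p = 0.988 for Ins2 in edgeR's quasi-likelihood test). Other hormones of the pancreatic islet went with them: Iapp had 14.4, 7.77 and 21.9 CPM in E420, E435 and E433 and at most 0.265 CPM in the others, and Gcg, which encodes glucagon, had 7.66, 5.46 and 18.3 CPM and at most 0.390 CPM. Enzymes of the exocrine pancreas did not separate these libraries, with Cpa1 at 1.02 to 1.86 CPM and Pnlip at no more than 0.103 CPM in all 6. These genes were picked after Ins1 and Ins2 had been seen. The 3 libraries hold both genotypes, and 1 of them, E433, is among the 2 rich in cartilage markers. Without E434 and E433, where both controls left are high and both mutants left are low, Ins1 and Ins2 were among the pathway genes called by edgeR.

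Genes beside the members were also read. Within 500 kb of the 10 members lay 219 other genes, of which 116 were tested. With edgeR 0 of the 116 were called, where 0.0639% of all genes tested were. An unadjusted p under 0.05 in the same test was found for 15 (12.9%, against 10.6% of all genes tested). Around Irs4, 8 of 18 genes were tested and 0 had an unadjusted p under 0.05 in edgeR's test. The nearest tested were Col4a5, a basement membrane collagen 21.764 kb away, with a log2 fold change of -0.21 (SE 0.13), and Hmgn2l6, 144.872 kb away on the other side, with 1.71 (SE 0.76, adjusted p = 0.491, edgeR). Igfbp1, a binding protein made mainly by liver, lies 3.540 kb from Igfbp3 and reached 1.62 CPM in mutant E433, against 0 to 0.124 CPM elsewhere. That is the library with 786 CPM of hepatocyte markers, and the link was not tested.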
